A study of Mus musculus with 6 samples.

Results

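This account follows 9 mouse genes of iron absorption and heme handling in jejunum with the nuclear receptor gene Hnf4a deleted in its epithelium. The genes were chosen by name for their roles, with earlier results of these data known. A gene was represented by probe sets that the platform annotation assigns to that symbol alone, and by the one with the highest mean over the 6 arrays. Of the 9 genes, 8 were measured in this way, out of 18193 genes in all. The ferritin light chain gene Ftl1 was not, because each of its 3 probe sets also lists another gene.

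The study set mutant mice, deleted for Hnf4a in the intestinal epithelium by a Cre transgene under a villin promoter, against control littermates. There were 3 mice of 7 months in each group, and each mouse had its own Affymetrix array. All 6 carried the strain label B6.129X1(FVB)-Hnf4atm1.1Gonz/J, and all were anaesthetised with ketamine (300 mg/kg) and xylazine (40 mg/kg) before they were killed. Whether the controls carried the Cre transgene is not stated in the labels. RNA came from biopsies of distal jejunum with muscle, stroma and immune cells included. Fewer cells of a type and less RNA per cell therefore cannot be told apart.

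Dietary iron enters the enterocyte in 2 forms. Ferric iron is reduced at the brush border by the cytochrome Cybrd1 and taken up as ferrous iron by Slc11a2 (DMT1). Heme iron is released inside cells by heme oxygenases, among them that encoded by Hmox1. Iron in the cell is either stored in ferritin, made of Fth1 and Ftl1 chains, or exported across the basolateral membrane by Slc40a1 (ferroportin), with Heph (hephaestin) oxidising it for transferrin. Tfrc, the transferrin receptor, brings iron back in from blood, and Hfe binds that receptor and helps set body iron. Iron absorption is known to be strongest in the duodenum, upstream of the tissue sampled here. Much of the control of these genes acts through iron regulatory proteins on RNA, and HIF-2α, a transcription factor of oxygen and iron shortage, drives Cybrd1, Slc11a2 and Slc40a1 in mouse intestine.

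None of the 8 measured genes passed the test for a difference between mutants and controls, with an adjusted p under 0.05 taken as the threshold throughout (limma, two-sided, Benjamini-Hochberg adjustment over 18193 genes). Over all genes 96 passed, which is 0.528% (0.198% higher and 0.33% lower). At an unadjusted p under 0.05 there were 2 of the 8, Fth1 and Tfrc, both lower in the mutants, where 6.85% of all genes were lower at that level. The groups did not overlap for 1 of the 8, Fth1, where 10.2% of all genes had all mutants lower and 6.93% all mutants higher. The median log2 difference of the 8 was -0.02, against -0.01 over all genes. All 8 probe sets used read above the median probe set of every array.

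Hnf4a itself served as a check of the labels. It read 8.83, 8.83 and 9.82 (log2 signal) in mutants 1, 2 and 3, against 11.82, 11.76 and 11.57 in controls 1, 2 and 3. The groups were well apart, and Hnf4a fell by 2.56 ± 0.25 SE on the log2 scale (limma, adjusted p = 0.00756). Without control 2 it missed the threshold (adjusted p = 0.0506).

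**Figure D1:**
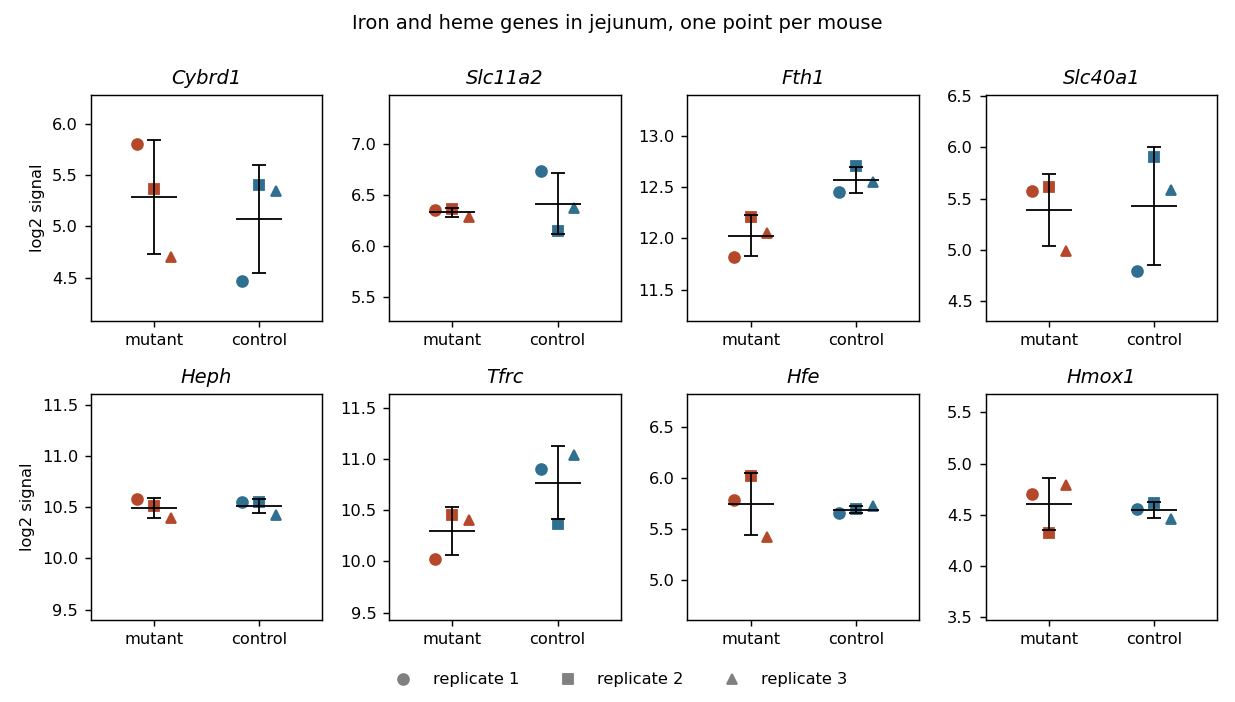
Log2 signal of the 8 measured genes, 1 point per mouse, with mutants left and controls right in each panel. Bars are mean ± SD (n = 3 each), every panel spans the same range of log2 units around its own centre, and marker shape gives the replicate number. The groups are apart for Fth1 alone.

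Uptake at the brush border came first. Cybrd1, the ferric reductase, read 5.80, 5.37 and 4.70 in mutants 1, 2 and 3, against 4.47, 5.41 and 5.34 in controls 1, 2 and 3. The groups overlapped, with 1 low mouse in each, mutant 3 and control 1. The difference was 0.22 ± 0.32 SE (adjusted p = 0.862), with a 95% interval from -0.53 to 0.96 that leaves room for a change of either sign. A dimmer Cybrd1 probe set differed by 0.04 ± 0.16 SE.

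Slc11a2 gave readings that depended on the probe set. Its brightest one read 6.35, 6.36 and 6.28 in mutants 1, 2 and 3, against 6.73, 6.14 and 6.37 in controls 1, 2 and 3, a difference of -0.08 ± 0.15 SE (adjusted p = 0.888). The mutants lay inside the range of the controls and close to one another. A second probe set read 5.79, 6.05 and 5.73 in mutants 1, 2 and 3, against 6.38, 6.40 and 6.36 in controls 1, 2 and 3. On that probe set all mutants lay below all controls, which were nearly identical, and the difference was -0.52 ± 0.11 SE (limma over 45037 probe sets, unadjusted p = 0.00159, adjusted p = 0.17). Of the others, 1 differed by 0.04 ± 0.23 SE and 1 was below the array median on every array. Slc11a2 is known to make transcripts that differ at both ends, some with an iron-responsive element and some without. The labels do not say which of them each probe set detects, and whether the probe sets differ from one another in their response was not tested.

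**Figure D2:**
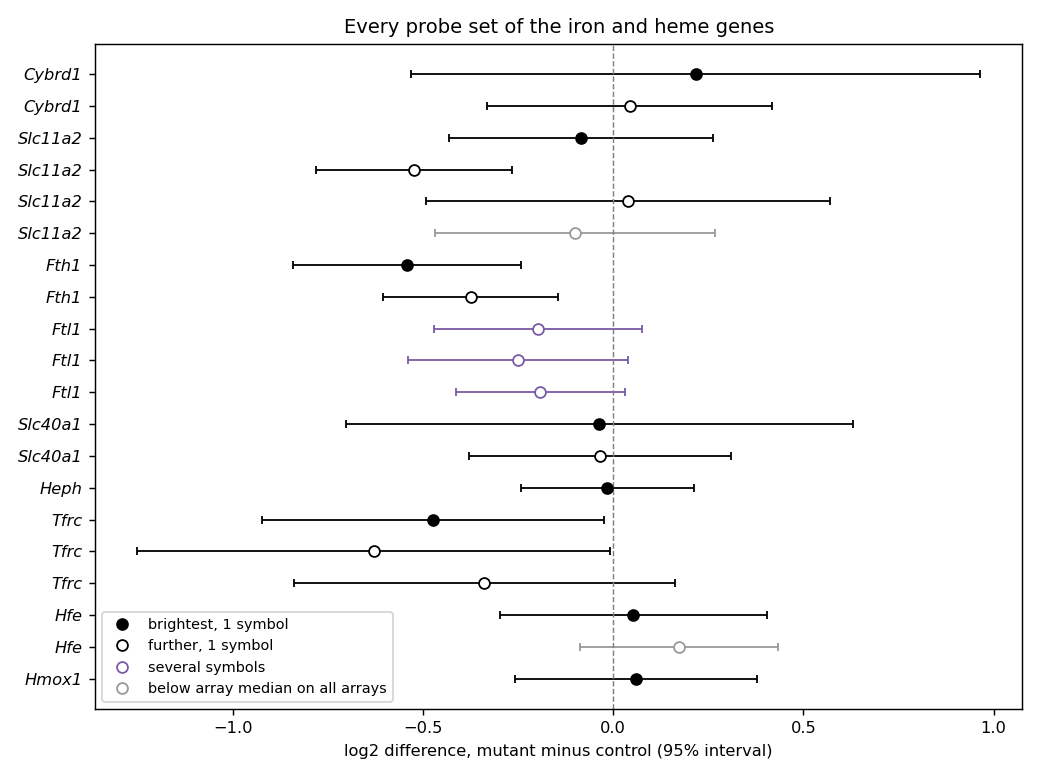
Log2 difference, mutant minus control, with its 95% interval for the 17 probe sets that name 1 of the 8 genes alone and the 3 that list Ftl1 with other genes. Filled points are the brightest of each gene. Both Fth1 probe sets and 1 further Slc11a2 probe set lie clear of 0 on the low side, as do the upper 2 of Tfrc by a narrow margin.

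The largest difference among the 8 genes was that of ferritin heavy chain, without passing the test. Fth1, the subunit with ferroxidase activity, read 11.82, 12.21 and 12.05 in mutants 1, 2 and 3, against 12.45, 12.70 and 12.56 in controls 1, 2 and 3. Every mutant lay below every control. The difference was -0.54 ± 0.13 SE, or 1.46-fold lower in the mutants (unadjusted p = 0.00324, adjusted p = 0.149), and 393 of 18193 genes had a p as small or smaller. A second Fth1 probe set read 12.19, 12.12 and 11.98 in mutants 1, 2 and 3, against 12.42, 12.54 and 12.45 in controls 1, 2 and 3. The groups were apart there too, by -0.37 ± 0.10 SE (unadjusted p = 0.00567, adjusted p = 0.262 over all probe sets). In 21 refits with other settings or fewer mice the Fth1 difference ran from -0.64 to -0.44, and its unadjusted p from 0.00112 to 0.0166, yet the adjusted p never came below 0.0816. The suffix of the brightest probe set (_s_at) marks, by Affymetrix naming, probes shared between transcripts, so copies of Fth1 could add to its signal.

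The probe sets that list the light chain gene Ftl1 together with an Ftl1 pseudogene lay lower in the mutants by smaller amounts. The brightest of these 3 read 11.45, 11.66 and 11.29 in mutants 1, 2 and 3, against 11.61, 11.74 and 11.64 in controls 1, 2 and 3. Mutant 2 overlapped the controls there. On the dimmest of the 3, which lists 5 symbols, all mutants lay below all controls. The 3 differences ran from -0.25 to -0.19, none passed the test (unadjusted p from 0.0798 to 0.134), and they cannot be credited to Ftl1 alone. Among other genes of storage and cytosolic iron chaperoning, 0 of 6 measured passed. This list includes the iron chaperone gene Pcbp2 at -0.17 ± 0.11 SE and Bola2, whose product works with a glutaredoxin in iron handling, at 0.08 ± 0.10 SE. Both moved with single arrays, Pcbp2 to -0.10 without control 2 and Bola2 over a range from 0.04 without mutant 3 to 0.13 without mutant 1, and with probe sets averaged they were at -0.07 and 0.03. Ftmt, the mitochondrial ferritin gene, differed by -0.14 ± 0.10 SE and read below the array median on all 6 arrays.

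Export genes did not separate the groups. Slc40a1, the only known exporter of ferrous iron from mammalian cells, read 5.58, 5.62 and 4.99 in mutants 1, 2 and 3, against 4.79, 5.91 and 5.58 in controls 1, 2 and 3. The difference was -0.04 ± 0.29 SE (adjusted p = 0.98), with a 95% interval from -0.70 to 0.63. Heph, the copper oxidase that works beside it, overlapped closely. It read 10.58, 10.51 and 10.39 in mutants 1, 2 and 3, against 10.55, 10.55 and 10.43 in controls 1, 2 and 3. The Heph difference of -0.02 ± 0.10 SE had the narrowest interval of the 8 genes, from -0.25 to 0.22, which bounds a change to about that size in either direction.

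On their brightest probe sets, Slc40a1 and Cybrd1 varied together between mice rather than between groups. There, mutant 3 and control 1 were the lowest of their group for both genes. Both mice carried Y-linked transcripts. Eif2s3y read 6.53 in mutant 3 and 6.85 in control 1, against 2.57 to 2.76 in the other 4 mice. Over the 6 arrays, the deviations of Slc40a1 and Cybrd1 from their group means correlated at r = 0.911, the highest of the 28 pairs among the 8 genes, which ranged down to -0.862. This is a description over 6 mice, with both genes read from the same array and tissue piece of each mouse, and it includes the mice with Y-linked transcripts. The dimmer probe sets of these genes did not repeat the pattern in full. On that of Cybrd1, control 1 was the highest control (4.51, against 4.18 and 4.06 in controls 2 and 3). On that of Slc40a1, mutant 1 was the lowest mutant (3.86, against 4.29 and 4.035 in mutants 2 and 3). With Y-linked signal as a covariate, the standard error of the Slc40a1 difference was 0.13 in place of 0.29 and that of Cybrd1 0.13 in place of 0.32, with differences of -0.04 and 0.21. The covariate marks the same mice in which both genes read lowest, so a smaller standard error follows from that and is no separate evidence. With 1 such mouse in each group the part of sex was not tested.

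Markers of position along the gut were read beside these genes. Of the 6 measured markers of the proximal small intestine, 2 fell in the mutants, 0 rose and 4 did not pass. Over all genes 0.33% passed as lower and 0.198% as higher. The mean signal of the 6 markers ran from 6.60 to 6.71 in mutants and from 7.01 to 7.19 in controls. Gip had the largest difference of the list, and 1 of the 6 had a higher mutant mean. Gip, which encodes an incretin hormone of enteroendocrine cells, read 9.07, 8.99 and 8.92 in mutants 1, 2 and 3, against 10.85, 10.74 and 11.06 in controls 1, 2 and 3. The groups were far apart and tight, and Gip fell by 1.89 ± 0.11 SE on the log2 scale (limma, adjusted p = 0.000998). It passed with any 1 array left out, but missed the threshold without control 3 and mutant 2 together (adjusted p = 0.0667), with a floor on low signals (adjusted p = 0.0512) and with no moderation of the variance (adjusted p = 0.161). Onecut2, a transcription factor gene, fell by 0.93 ± 0.12 SE (adjusted p = 0.024) but read below the array median on 5 of 6 arrays, and its call was lost without any 1 array but control 1 (adjusted p from 0.0553 to 0.102) and with its probe sets averaged (-0.69, adjusted p = 0.188). Of the others, Gata4 differed by -0.34 ± 0.10 SE (adjusted p = 0.22) and Cck, the cholecystokinin gene, by 0.90 ± 0.21 SE (adjusted p = 0.135). Without control 3 Cck passed, at 1.17 (adjusted p = 0.0431). Pdx1 and Sct differed by -0.12 ± 0.11 SE and -0.03 ± 0.12 SE. Which of these markers were given in detail was decided after their values were seen.

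The distal markers gave no call. Fabp6, the ileal bile acid binding protein, read 9.57, 10.03 and 9.80 in mutants 1, 2 and 3, against 9.15, 6.67 and 3.37 in controls 1, 2 and 3. Of the 6 measured markers of ileum and colon, 5 were higher in the mutant mean and 1, Cubn, was lower (log2 difference -2.28 ± 0.44 SE, adjusted p = 0.0832), with 0 past the test. Over all genes 53.3% had a lower mutant mean. At an unadjusted p under 0.05 (limma), 3 were higher and 1 lower, where 5.24% of all genes were higher and 6.85% lower. The higher ones were Fabp6 at 3.40 ± 1.19 SE, Slc10a2 at 1.96 ± 0.67 SE and Slc51b at 0.65 ± 0.18 SE. Slc10a2 read below the array median in all 3 controls. Cubn did pass without control 1 and mutant 3 (-2.18, adjusted p = 0.0346), with the Y-linked covariate (-2.29, adjusted p = 0.00487) and with array weights (-2.31, adjusted p = 0.0433). The mean signal of the 6 distal markers ran from 7.83 to 8.08 in mutants and from 6.69 to 7.73 in controls. It was lowest in control 3, where Fabp6 read 3.37. Slc46a1, the proton-coupled folate carrier that also moves heme and is known from the proximal gut, was picked here after its values were seen. It read 7.46, 7.54 and 6.83 in mutants 1, 2 and 3, against 6.87, 7.83 and 8.20 in controls 1, 2 and 3. Its lowest readings were in the same 2 mice as those of the brightest Slc40a1 and Cybrd1 probe sets. The part of sampling position in these levels was not tested.

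**Figure D3:**
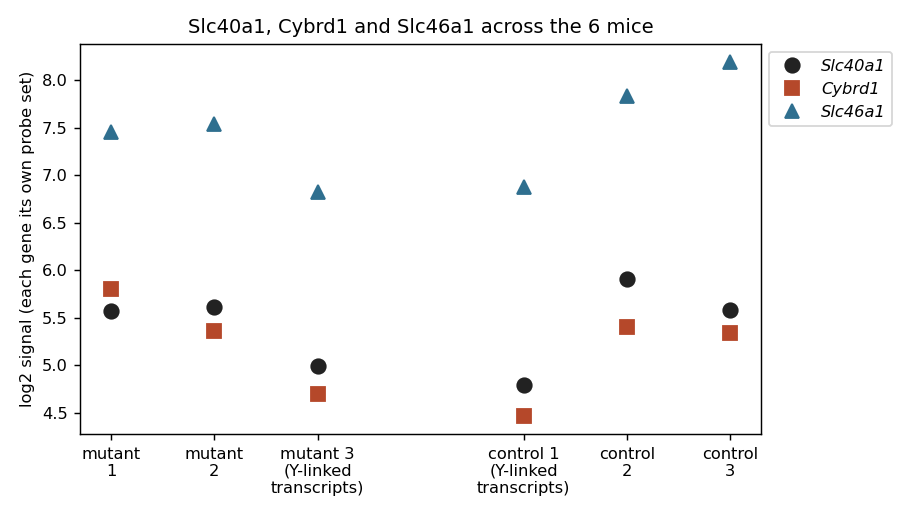
Log2 signal of Slc40a1, Cybrd1 and Slc46a1 in each of the 6 mice, mutants left and controls right, each gene read by its own probe set so that heights are not comparable between genes. Mutant 3 and control 1, the mice with Y-linked transcripts, are lowest of their group for all 3 genes on the probe sets shown. On the dimmer Cybrd1 probe set, not shown, control 1 was the highest control.

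Basolateral uptake and its partner followed. Tfrc read 10.02, 10.45 and 10.41 in mutants 1, 2 and 3, against 10.91, 10.36 and 11.03 in controls 1, 2 and 3. Control 2 fell within the range of the mutants and the other controls lay above it. The difference was -0.47 ± 0.20 SE (unadjusted p = 0.0417, adjusted p = 0.383). Without control 2 the difference was -0.67 (adjusted p = 0.273), and without mutant 1 it was -0.34 (adjusted p = 0.538). All 6 probe sets for Tfrc, 3 of them Affymetrix control sets along the transcript, had a lower mutant mean and control 2 as the lowest control. The dimmest of them read below the array median on all 6 arrays. The next 2 did so on all 3 mutant arrays, and on 2 and 1 of the control arrays. The 6 probe sets share the same RNA and are no independent evidence. Markers of proliferating crypt cells, which need much iron and are rich in the receptor, gave no call. Of these, 0 of 9 measured passed and 7 had a lower mutant mean, where 53.3% of all genes did. The mean signal of these markers ran from 8.25 to 8.46 in mutants and from 8.37 to 8.51 in controls. Hfe read 5.78, 6.02 and 5.42 in mutants 1, 2 and 3, against 5.65, 5.69 and 5.72 in controls 1, 2 and 3. The controls lay together inside the wider range of the mutants, at a difference of 0.05 ± 0.15 SE (adjusted p = 0.936).

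Hmox1, which encodes an enzyme of heme breakdown, showed no separation. Hmox1 read 4.71, 4.32 and 4.79 in mutants 1, 2 and 3, against 4.56, 4.62 and 4.46 in controls 1, 2 and 3. These readings were not far above the array medians, which ran from 3.93 to 3.98. The mutants lay on both sides of the controls, with a difference of 0.06 ± 0.14 SE (adjusted p = 0.916) and a 95% interval from -0.26 to 0.38. Hmox1 answers to oxidative stress in many cells. The title of the series names reactive oxygen species.

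Hmox1, Slc40a1 and ferritin are also abundant in macrophages that recycle heme iron. Of 10 macrophage markers measured, 8 had a higher mutant mean, where 8505 of 18193 genes did, and 0 passed the test. At an unadjusted p under 0.05 (limma), 2 were higher and 0 lower, where 5.24% of all genes were higher and 6.85% lower. These were Csf1r at 0.398 ± 0.133 SE and Adgre1 at 0.285 ± 0.105 SE. The mean signal of the 10 markers ran from 6.23 to 6.69 in mutants and from 6.21 to 6.28 in controls, with Marco and Vsig4 below the array median on every array. Epithelial markers fitted the tissue label. Their mean over 9 genes ran from 12.24 to 12.30 in mutants and from 12.31 to 12.37 in controls, and 0 passed the test. Red cell markers were close to background, with 4 of 6 under the array median throughout. Pancreatic acinar markers averaged 7.99 in control 3 and at most 4.57 on the other arrays, and the fat marker Adipoq read 10.38 in mutant 2 against at most 8.21 elsewhere. Without both of these mice the Fth1 difference was -0.64 ± 0.17 SE, and that of Tfrc was -0.42 ± 0.24 SE, with adjusted p of 0.54 and 0.776 in limma's test. The part of these cell types in the levels was not tested.

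Promoter sequence is shown for the 2 genes with the smallest p, Fth1 and Tfrc, since the deletion removed a DNA-binding receptor. The windows are the 250 bases upstream of a transcript start, from RefSeq on GRCm38.p6, plus strand, 5′ to 3′. Capitals mark a match on either strand to CAAAGT, the core of the HNF4 recognition motif, to ACGTG or GCGTG, the cores bound by hypoxia-inducible factors, or to the antioxidant motif TGACNNNGC. Fth1 has an upstream start, at chr19:9980350-9980599, and a downstream one, at chr19:9982396-9982645, and the Tfrc window is the first of 2 starts, at chr16:32608646-32608895.
Fth1 upstream start: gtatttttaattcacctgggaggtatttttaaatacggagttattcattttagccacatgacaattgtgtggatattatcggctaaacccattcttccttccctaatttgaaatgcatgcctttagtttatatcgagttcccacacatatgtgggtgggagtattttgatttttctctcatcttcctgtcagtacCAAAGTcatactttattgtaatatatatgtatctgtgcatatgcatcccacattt
Fth1 downstream start: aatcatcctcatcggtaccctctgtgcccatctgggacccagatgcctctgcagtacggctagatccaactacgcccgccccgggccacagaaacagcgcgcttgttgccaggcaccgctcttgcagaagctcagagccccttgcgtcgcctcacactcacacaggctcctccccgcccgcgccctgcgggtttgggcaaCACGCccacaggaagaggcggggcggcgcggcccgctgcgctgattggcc
Tfrc first start: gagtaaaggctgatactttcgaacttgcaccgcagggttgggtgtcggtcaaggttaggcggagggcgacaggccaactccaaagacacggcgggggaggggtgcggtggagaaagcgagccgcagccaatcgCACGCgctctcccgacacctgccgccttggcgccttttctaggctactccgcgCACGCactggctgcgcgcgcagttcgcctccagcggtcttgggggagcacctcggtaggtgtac

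The sequence table held 7 windows for 5 of the genes, namely Cybrd1, Fth1, Ftl1, Hfe and Tfrc. The full HNF4 motif CAAAGTCCA, which contains CAAAGT, was found in 0 of the 7 windows and in 0.384% of all 32851 windows, on both strands. The shorter CAAAGT occurred in 2, the upstream start of Fth1 at base -55 and Hfe at base -131 on the other strand, and in 12.6% of all windows. A hypoxia core occurred in 5 of the 7 windows and in 38.6% of all, so a match to it is common. The antioxidant motif was in the Hfe window alone, and in 10.2% of all windows. These are matches of letters in short windows, and no binding was measured.

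Other genes of iron and heme metabolism were read from 9 lists holding 85 genes, of which 81 were measured. Of these, 3 rose, 0 fell and 78 did not pass, beside the 0.198% of all genes that rose and the 0.33% that fell. Without control 3 and mutant 2, the arrays with pancreatic and fat transcripts, 0 of the 81 passed in limma's test, where 4 of all genes did. At an unadjusted p under 0.05, 12 were higher and 5 lower, where 5.24% of all genes were higher and 6.85% lower at that level. The median log2 difference was -0.03, against -0.01 over all genes. The lists were chosen with earlier results of these data known, so their counts beside the shares of all genes are a description only.

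**Figure D4:**
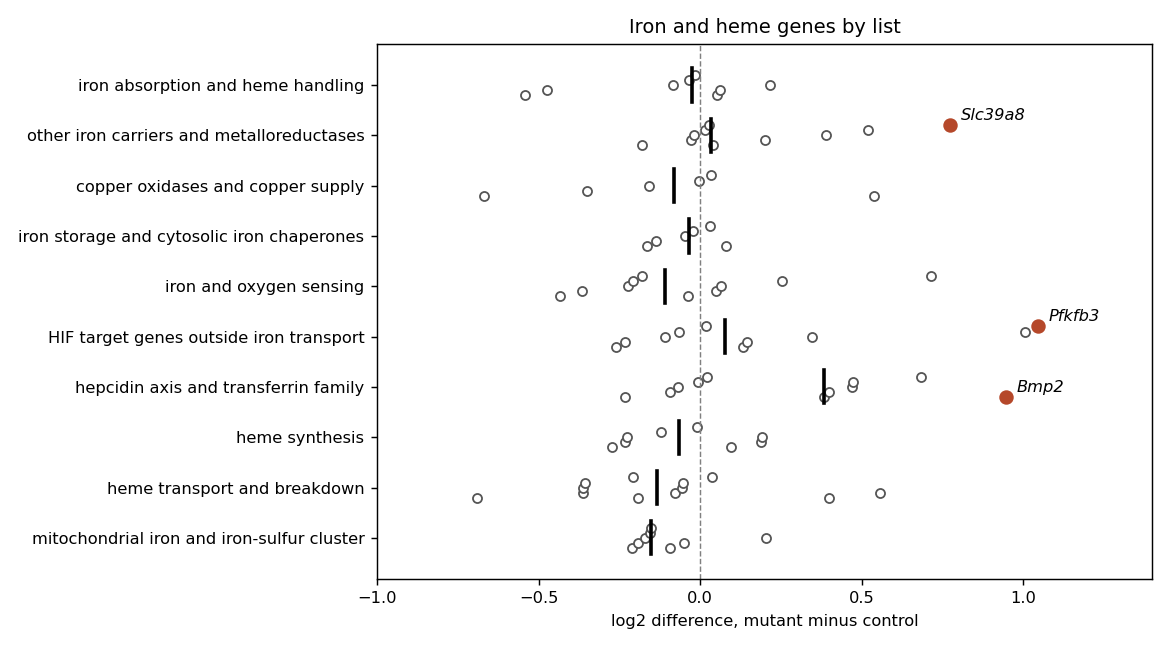
Log2 difference, mutant minus control, for the 8 measured genes of iron absorption and heme handling (top row) and the 81 measured genes of the 9 other lists. Each point is a gene, filled where the adjusted p was under 0.05, and vertical bars are list medians. The 3 filled points, Slc39a8, Pfkfb3 and Bmp2, lie between 0.77 and 1.05.

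Slc39a8 rose among the other iron carriers and metalloreductases. It encodes ZIP8, an importer of zinc and manganese that can also carry iron, and read 7.18, 7.45 and 7.27 in mutants 1, 2 and 3, against 6.41, 6.61 and 6.56 in controls 1, 2 and 3. All mutants lay above all controls, at 0.77 ± 0.11 SE (adjusted p = 0.0321). The call was lost without any 1 array but mutant 1 (adjusted p from 0.0617 to 0.166) and when its 2 probe sets were averaged (difference 0.46, adjusted p = 0.195). The second of them read below the array median on all 6 arrays. Its list had 1 of 10 genes higher, 0 lower and a median of 0.04. The metalloreductase genes Steap1 and Steap4 differed by 0.39 ± 0.16 SE and 0.52 ± 0.24 SE, neither past the test. Steap1 was at 0.21 without mutant 3, and Steap4 at 0.30 without mutant 2 and 0.28 with its probe sets averaged. Steap4 read below the array median in all 3 controls and in 1 mutant.

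Bmp2 rose in the list of the hepcidin axis and transferrin family. It encodes a signalling ligand which, made by liver endothelium in mice, induces the iron hormone hepcidin. It read 8.64, 8.59 and 8.57 in mutants 1, 2 and 3, against 7.86, 7.59 and 7.50 in controls 1, 2 and 3. The mutants were alike and lay above all controls, at 0.95 ± 0.12 SE (adjusted p = 0.0212), and the call was lost without control 2, control 3 or mutant 2 (adjusted p from 0.0771 to 0.108). In this list 1 of 11 measured genes rose and 0 fell, and 5 were higher at an unadjusted p under 0.05, where 5.24% of all genes were. The list median was 0.38, the highest of the 9 lists, with 0.11 without mutant 1 and 0.20 when each gene's probe sets were averaged. Neo1, a receptor that in liver acts with hemojuvelin, differed by 0.69 ± 0.12 SE (adjusted p = 0.0669), and by 0.43 ± 0.20 SE (adjusted p = 0.459) with its probe sets averaged. Lcn2, which binds bacterial iron carriers, differed by 0.38 ± 0.12 SE, but read below the array median on all 6 arrays, as did Hamp, the hepcidin gene.

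Pfkfb3 rose among targets of hypoxia-inducible factors that lie outside iron transport. It encodes an enzyme that speeds glycolysis, and read 6.44, 6.84 and 6.39 in mutants 1, 2 and 3, against 5.60, 5.33 and 5.60 in controls 1, 2 and 3. The groups were apart by 1.05 ± 0.15 SE (adjusted p = 0.0307). The call was lost without any 1 array but mutant 3 (adjusted p from 0.0512 to 0.127) and when its 2 probe sets were averaged (difference 0.47, adjusted p = 0.103). The second probe set, dim, differed by -0.11 ± 0.10 SE. The list had 1 of 10 genes higher, 0 lower and a median of 0.08. The glucose carrier gene Slc2a1 differed by 1.01 ± 0.25 SE (adjusted p = 0.152), higher in all 3 mutants and most in mutant 3, and the vasoactive peptide gene Adm by 0.35 ± 0.17 SE. Adm ran from 0.21 without mutant 2 to 0.53 without mutant 1, and was at 0.55 with its probe sets averaged.

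Sensors of iron and oxygen had 0 of 10 genes past the test and a median of -0.11. Ireb2 and Aco1 encode the iron regulatory proteins that bind iron-responsive elements in ferritin and transferrin receptor RNA. Ireb2 read 7.29, 7.69 and 7.73 in mutants 1, 2 and 3, against 7.83, 8.07 and 8.11 in controls 1, 2 and 3. Its mutants lay below its controls, at -0.43 ± 0.15 SE (unadjusted p = 0.0181, adjusted p = 0.283). Aco1 differed by -0.37 ± 0.15 SE (unadjusted p = 0.0405, adjusted p = 0.378) with mutant 1 inside the range of the controls, and by -0.24 without mutant 3. Egln1, a prolyl hydroxylase that marks hypoxia-inducible factors for degradation, differed by -0.22 ± 0.10 SE.

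Heme genes gave no call. In heme transport and breakdown 0 of 12 genes passed and the median was -0.14. Of the 12, 9 had a lower mutant mean, where 53.3% of all genes did. Flvcr2, a carrier reported to move heme and choline, read 4.70, 4.30 and 4.69 in mutants 1, 2 and 3, against 5.18, 5.49 and 5.08 in controls 1, 2 and 3. The groups did not overlap, at -0.69 ± 0.15 SE (unadjusted p = 0.00207, adjusted p = 0.122). Bach1, which encodes a heme-sensing repressor of Hmox1, differed by 0.56 ± 0.18 SE (unadjusted p = 0.0151, adjusted p = 0.27) and by 0.34 without mutant 3, and the heme-binding membrane protein gene Pgrmc1 by -0.36 ± 0.13 SE. Of heme synthesis genes 0 of 8 passed, at a median of -0.07, with Uros at -0.23 ± 0.12 SE, Ppox at -0.27 ± 0.14 SE and Fech, the ferrochelatase gene, at -0.22 ± 0.13 SE. With probe sets averaged Ppox was at -0.15 and Fech at -0.13, and Fech ran from -0.36 without mutant 2 to -0.14 without mutant 3.

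Copper and mitochondrial iron genes completed the set. Copper oxidases and copper supply had 0 of 6 genes past the test and a median of -0.08. Ceruloplasmin (Cp), the plasma relative of Heph, differed by 0.54 ± 0.22 SE, the copper importer gene Slc31a1 by -0.67 ± 0.29 SE and the copper pump gene Atp7b by -0.35 ± 0.19 SE. Cp was at 0.26 without mutant 2, the array with fat transcripts, and at 0.22 with its probe sets averaged. The groups overlapped for Slc31a1 (adjusted p = 0.412 in limma's test). With 1 array left out it ran from -0.98 without control 1 to -0.49 without mutant 1. Atp7b was at -0.18 without control 3, at -0.22 without mutant 1 and at -0.03 with its probe sets averaged. Mitochondrial iron and iron-sulfur cluster genes had 0 of 8 past the test. In that list 7 of 8 had a lower mutant mean, where 53.3% of all genes did. The list median was -0.15, against -0.01 over all genes. Isca1, of cluster assembly, differed by -0.21 ± 0.11 SE, the mitochondrial iron carrier gene Slc25a28 by 0.20 ± 0.12 SE (0.10 without mutant 3) and Abcb10, an inner membrane transporter linked to heme synthesis, by -0.15 ± 0.09 SE.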

How the data were processed

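The values are log2 signals as the authors deposited them, with 1 value for every probe set on each array. How the authors corrected background, summarised probes and normalised arrays is not stated in the labels. That the scale is log2 follows from the range, 1.80 to 14.5, and array medians between 3.93 and 3.98 left no need for further scaling. Of 45101 probe sets, 64 Affymetrix controls were left out. Among the rest, 34945 carry a single symbol and give 18193 genes by the brightest probe set. RefSeq (GRCm38.p6) held the Entrez identifiers of 34741, with 0 symbols changed. No build is named for the arrays, and coordinates are those of the RefSeq promoter table.

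Mutants and controls were compared in limma 3.58.1 (R 4.3.3) by lmFit and eBayes with no further term, after a check on simulated data. Mice are the replicates, and 3 arrays a group limit the precision. The members and lists were chosen with earlier results of these data known. The text names Hnf4a, the 9 genes, the 3 genes of each list with the smallest p, and markers of the lists, and says where a gene was picked later. Levels of different probe sets are not compared. Mice of the same number did not deviate together (r = 0.073, 0.068 and -0.018 across genes), so the numbers were not taken as pairs.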

Additional observations from a re-analysis of the deposited data

How the results depend on the processing

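In 21 alternatives, 20 planned and 1 added after the data were seen (without control 1 and mutant 3), the count of the 8 genes past the test was 0 each time. Genes changed over all genes numbered 96, against 2 with a floor at the 20th percentile, 2 with no moderation of the variance, 59 adjusted over all probe sets, 62 with the replicate block, 150 with array weights, 196 with the Y-linked covariate, 20 and 248 at thresholds of 0.01 and 0.1, 4 without control 3 and mutant 2, and 22 to 96 with 1 array left out. The other iron and heme lists had 3 genes past the test, against 0 with the floor, with no moderation, at 0.01 and without control 3 and mutant 2, 1 with averaged probe sets, adjusted over all probe sets, with the replicate block and without control 1 and mutant 3, and 0 to 2 with 1 array left out. Hnf4a missed the threshold with the floor (-2.56, adjusted p = 0.114), no moderation (-2.56, adjusted p = 0.274) and without control 3 and mutant 2 (-2.47, adjusted p = 0.205), and ran from -2.89 to -2.39 with 1 array left out. Fewer arrays also mean less power, and beyond that the cause was not tested.

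Signs of the uncalled differences turned for 6 genes. With 1 array left out, Slc11a2 ran from -0.221 to 0.074, Slc40a1 from -0.353 to 0.206, Cybrd1 from -0.085 to 0.512, Heph from -0.058 to 0.036, Hmox1 from -0.032 to 0.203 and Hfe from -0.087 to 0.215. Heph was 0.045 under quantile normalisation and 0.005 with array weights. Without control 1 and mutant 3, Slc11a2 was 0.10, Heph 0.055 and Hmox1 -0.025, and without control 3 and mutant 2 Hfe was -0.07. Fth1 and Tfrc kept their sign in each alternative. The number of arrays limits all of these.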
